A study of Mus musculus with 2 samples.

Results

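The secreted factors of bone morphogenetic protein (BMP) and activin signalling that were followed across the cell types of the inflamed mouse colon were the products of 9 genes: the ligand genes Bmp2, Bmp4, Bmp5 and Bmp7, the activin subunit gene Inhba, and the antagonist or modulator genes Grem1, Chrdl1, Fst and Fstl1. They were chosen by symbol, and 9 of 9 were found in both libraries, among 26425 genes listed for the wild-type library and 25467 for the other. Single-cell RNA-seq counts unique molecular identifiers (UMIs), each standing for 1 RNA molecule, in droplet- or well-isolated cells, here on the Singleron GEXSCOPE platform. Both libraries came from the colon, rectum included, of C57BL/6 mice aged 8 to 10 weeks treated with DSS (dextran sulfate sodium), which damages the lining of the colon and brings on inflammation. The first group was wild type and the second is labelled as an Elf-1 knockout, lacking the ETS-family transcription factor Elf1. Each library pooled the cells of 3 mice, and no untreated mice were analysed here. The comparison asks how these signals are distributed over the cells of the inflamed colon in the 2 groups. Each group is 1 library whose cells cannot be assigned to single mice, which left no replicate check, and no difference was tested. Intervals in parentheses are 95% intervals for counting error only, and the spread between mice is unknown.

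BMPs are secreted ligands that bind type I and type II receptor kinases, which phosphorylate Smad proteins and raise targets such as the Id genes. In the gut, BMP activity is high towards the lumen, where it favours epithelial differentiation, and low around the crypt base, where stromal antagonists such as gremlin 1 keep ligands away from the stem cell zone. Activin A, a dimer of the Inhba product, acts through related receptors, and follistatin, the Fst product, binds and neutralises it.

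Elf1 RNA did not separate the libraries: 5713 UMIs were counted in wild-type cells and 6743 in cells of the other library, or 191.6 and 181.0 UMIs per 1000000 UMIs of the cells (CPM). The sources used here do not state which stretch of the gene was removed, and UMIs from anywhere in Elf1 were counted, so this level does not check the label. The second library is called the labelled knockout library throughout. After filtering, 7718 and 9474 cells remained, at medians of 2022.5 and 2636 UMIs per cell. Of the kept barcodes, 44 occurred in both libraries. Fibroblasts made up 16.0% of wild-type and 29.4% of labelled knockout cells (1234 and 2784 cells), and smooth muscle cells with pericytes 5.01% and 12.7% (387 and 1206 cells). Epithelial cells, which line the colon, made up 13.9% and 0.654% (1075 and 62 cells), and their make-up was unlike. Cluster 5, led by Dmbt1, Lypd8 and Krt19, held 932 and 7 of them. Cluster 25, led by Mptx1, Zg16 and Clca1, held 123 and 0. Cluster 9, led by the enteroendocrine genes Chgb, Chga and Tph1, held 20 and 55. The stromal classes were filled by different clusters in the 2 libraries. Of wild-type fibroblasts, 60.9% lay in cluster 6, which Sfrp2 and Wnt4 led, while 68.1% of labelled knockout fibroblasts lay in cluster 14, which Il11 and Mmp3 led. Cluster 8, led by the contractile genes Cnn1 and Tagln, held 75.2% of wild-type smooth muscle cells and pericytes, and cluster 13, led by Enpp2, Serpina3c and Myh11, held 87.4% of those of the labelled knockout library. Cluster 13 scored nearly alike on the smooth muscle list (0.197, the mean of its markers' levels relative to their highest cluster) and on the fibroblast list (0.186).

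Most RNA of the 9 genes lay in the stroma, that is, in fibroblasts, smooth muscle cells and pericytes together. The stroma held 97.1% and 96.7% of all Bmp4 UMIs (wild type and labelled knockout, the order used throughout), 96.8% and 96.6% of Bmp5, 95.2% and 95.7% of Bmp7, 97.5% and 97.6% of Grem1 and 95.4% and 97.0% of Fstl1. Bmp2 and Inhba were the genes with a large share elsewhere. Epithelial cells held 48.4% of wild-type Bmp2 UMIs, and macrophages and monocytes held 29.4% of wild-type Inhba UMIs.

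**Figure D1:**
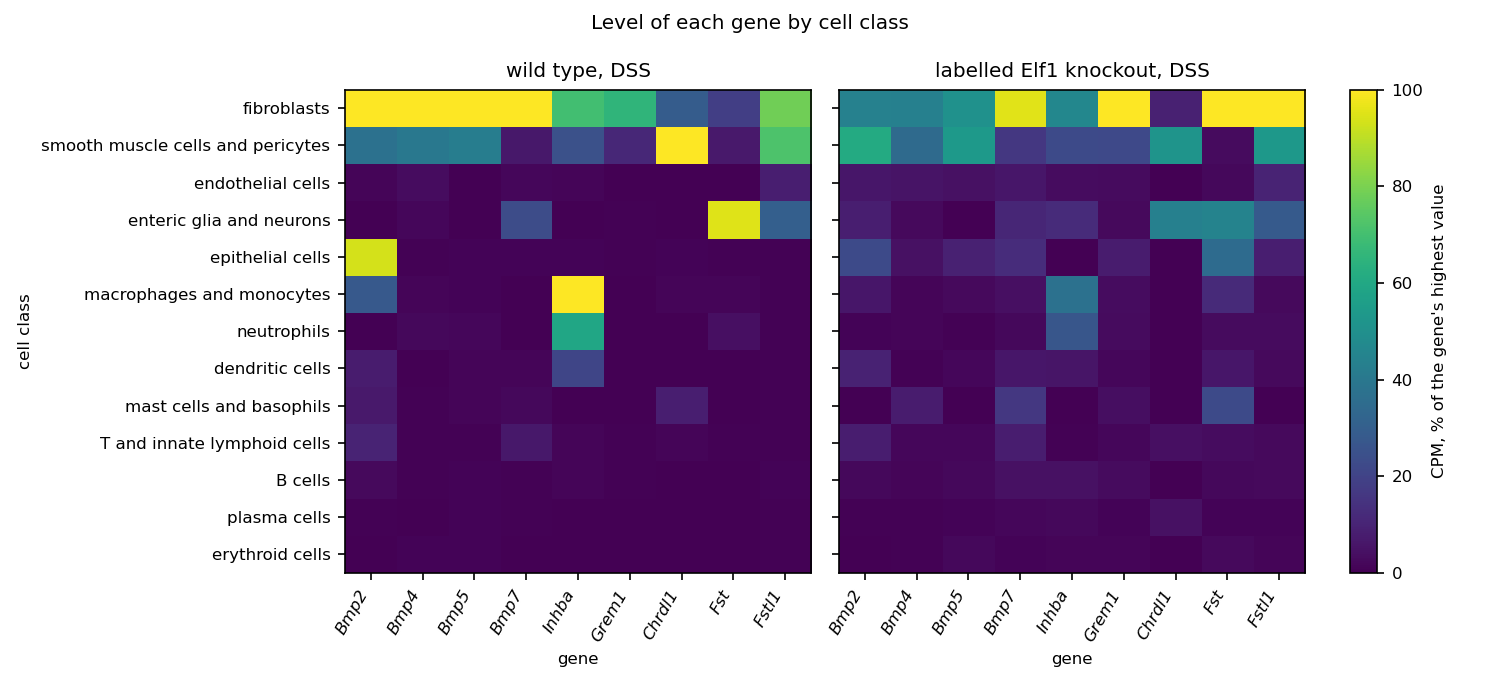
Level of each of the 9 genes (columns) in each cell class (rows) in the wild-type (left) and labelled knockout (right) library, as CPM in percent of that gene's highest value over both panels. Colour runs from 0 to 100%, so levels can be compared within a column but not between genes. Stromal rows are bright for most genes, with Bmp2 also bright in wild-type epithelial cells and Inhba in wild-type macrophages; glia (25 and 44 cells) and mast cells (83 and 20 cells) rest on few cells.

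Bmp2 (ENSMUSG00000027358, GRCm38 chromosome 2, 133552159 to 133562885, plus strand) was the one BMP ligand also seen in the epithelium, where differentiated cells are known to make it. Wild-type epithelial cells had 591 Bmp2 UMIs, or 85.8 CPM (79.0 to 93.0), and labelled knockout epithelial cells 10 UMIs, or 20.5 CPM (9.81 to 37.6). Those 62 labelled knockout cells also held 74 Grem1 UMIs (151 CPM) and 18 Fst UMIs (36.8 CPM), RNA of stromal genes at levels above their own Bmp2, so their 10 Bmp2 UMIs are not read as an epithelial level. Of these 62 cells, 55 lay in cluster 9, which held 20 of the 1075 wild-type epithelial cells, so the 2 values set unlike cells side by side. The stroma held 44.6% of wild-type but 92.7% of labelled knockout Bmp2 UMIs. Fibroblasts had 91.7 CPM (83.9 to 100.03) of Bmp2 in the wild-type and 40.2 CPM (37.2 to 43.4) in the labelled knockout library, 2.28-fold (2.03 to 2.56) lower. Smooth muscle cells and pericytes went the other way, with 34.1 CPM (24.0 to 47.0) against 55.9 CPM (48.3 to 64.4). Without cluster 13 that class had 29.6 and 28.9 CPM, a ratio of 0.976 (0.454 to 1.97). The cells that remain then are unlike in the 2 libraries, since 282 of 355 wild-type cells lay in the contractile sub-cluster 2 and 117 of 152 labelled knockout cells in the Cajal-like sub-cluster 5 (both described later). All values given for the class without cluster 13 set these unlike cells side by side.

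Bmp4 (ENSMUSG00000021835, chromosome 14, 46383520 to 46390669, minus strand) was seen, with at least 1 UMI, in 71.7% of wild-type and 55.1% of labelled knockout fibroblasts. B cells, which should lack it, gave 0.759% and 1.01%, at medians of 1403 and 1163 UMIs against 4252.5 and 5611.5 in fibroblasts. With each cell thinned to 1000 UMIs the fibroblast shares were 39.2% and 22.8%, with 70 and 241 shallower cells left out. The Bmp4 level in fibroblasts was 621 CPM (601 to 643) in the wild-type and 271 CPM (263 to 279) in the labelled knockout library, 2.30-fold (2.20 to 2.40) lower. In smooth muscle cells and pericytes it was 249 CPM (220 to 280) and 214 CPM (199 to 230), within 2-fold.

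Bmp5 (ENSMUSG00000032179, chromosome 9, 75775364 to 75900310, plus strand), a close relative of Bmp7, had 250 CPM (237 to 263) in wild-type and 126 CPM (120 to 131) in labelled knockout fibroblasts, 1.98-fold (1.85 to 2.12) lower and so just within 2-fold. In smooth muscle cells and pericytes its levels were 106 and 135 CPM, a ratio of 1.27 (1.03 to 1.57), and 109 and 55.5 CPM without cluster 13. Bmp7 (ENSMUSG00000008999, chromosome 2, 172868012 to 172940321, minus strand), which can pair with other BMPs in heterodimers, stood at 144 CPM (134 to 154) and 137 CPM (132 to 143) in fibroblasts, a ratio of 0.954 (0.88 to 1.04). Its interval included 1, and the sign of its log2 ratio turned to 0.30 under another scaling of the totals (trimmed mean of M values, TMM). In smooth muscle cells and pericytes 10 wild-type and 81 labelled knockout UMIs gave 9.21 and 23.6 CPM, or 7.23 CPM in the labelled knockout library without cluster 13.

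Inhba (ENSMUSG00000041324, chromosome 13, 16011851 to 16031621, plus strand) was found in both stromal and myeloid cells. Macrophages and monocytes had 193 CPM (174 to 214) in the wild-type and 71.6 CPM (63.0 to 81.0) in the labelled knockout library, 2.69-fold (2.29 to 3.18) lower. The make-up of this class was unlike in the 2 libraries. Cluster 0, led by C1qc, C1qb and C1qa, held 546 and 412 of its cells. Cluster 28, led by Chil3, F13a1 and F10, held 3 and 565. Its part in the ratio was not tested. In neutrophils the values were 114 CPM (75.1 to 166) from 27 UMIs and 51.8 CPM (43.5 to 61.3) from 136 UMIs. Fibroblasts had 135 CPM (125 to 145) and 89.2 CPM (84.7 to 94.0), a ratio of 0.662 (0.606 to 0.724). This last ratio had no stable direction: on the log2 scale it was -0.60 from summed UMIs, 0.06 as a mean over cells and 0.20 with each cell thinned to 1000 UMIs. The summed level of 14 macrophage markers, all detected in both libraries, in the fibroblast class was also lower in the labelled knockout library, 743 against 2558 CPM, and its part in the Inhba ratio was not tested.

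Among the antagonists, Grem1 (ENSMUSG00000074934, chromosome 2, 113746164 to 113758646, minus strand), which binds BMP2, BMP4 and BMP7 and keeps them from their receptors, was higher in labelled knockout fibroblasts. It reached 1298 CPM (1268 to 1328) in the wild-type and 1980 CPM (1958 to 2001) in the labelled knockout library, 1.53-fold (1.49 to 1.57) higher. At least 1 Grem1 UMI was seen in 46.7% and 65.4% of fibroblasts, and in 36.7% and 52.7% after thinning. In B cells the shares were 1.44% and 7.28%, and 0.636% and 5.98% after thinning, with 460 and 303 shallower cells left out. Low Grem1 counts also appeared across the non-stromal classes of the labelled knockout library. B cells had 8.11 and 55.6 CPM, macrophages 6.83 and 64.4 CPM, endothelial cells 6.61 and 55.9 CPM and neutrophils 4.22 and 57.5 CPM, while the epithelial cells, 62 in the labelled knockout library, had 13.6 and 151 CPM. In the labelled knockout library, B cells, plasma cells, neutrophils and macrophages held 80, 85, 151 and 225 Grem1 UMIs beside 65, 78, 125 and 163 Fstl1 UMIs, while fibroblasts held 32341 and 28337. Free RNA can give such low counts in any class, and these values are not read as expression. In labelled knockout fibroblasts, Grem1 lay 153 times above its background bound, the lowest mean UMI count per cell of any named class.

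Bmp4 and Grem1 are the ligand and the antagonist that the comparison within shared stromal sub-clusters, given later, turns on. Their promoters are shown because Elf1, the factor named in the labels, binds DNA. They are given as the 250 bases upstream of each RefSeq start site (GRCm38.p6), 5′ to 3′ on the gene's own strand. Capitals mark GGAA, the core that ETS-family factors such as Elf1 recognise, or TTCC, the same core on the other strand.
Bmp4 (chr14:46390670-46390919, minus strand): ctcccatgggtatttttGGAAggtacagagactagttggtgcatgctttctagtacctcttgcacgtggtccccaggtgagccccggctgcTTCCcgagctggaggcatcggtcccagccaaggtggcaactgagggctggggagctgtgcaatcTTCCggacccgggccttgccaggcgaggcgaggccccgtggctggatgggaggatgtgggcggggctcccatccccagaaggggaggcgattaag
Grem1 (chr2:113758649-113758898, minus strand): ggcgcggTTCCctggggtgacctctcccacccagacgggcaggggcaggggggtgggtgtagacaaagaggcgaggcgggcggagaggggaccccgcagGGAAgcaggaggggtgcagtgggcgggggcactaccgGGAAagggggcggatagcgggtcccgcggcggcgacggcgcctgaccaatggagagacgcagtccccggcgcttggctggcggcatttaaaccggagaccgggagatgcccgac
Both hold 3 such cores on either strand, which is also the median over 32851 RefSeq promoters, 93.4% of which hold at least 1. The longer ETS sequence CCGGAAGT occurs in 2.88% of those promoters on either strand and in neither of these. The table matched 5 of the 9 genes (Bmp4, Bmp5, Fstl1, Grem1 and Inhba). A match is a run of letters and says nothing about binding in these cells.

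Fst (ENSMUSG00000021765, chromosome 13, 114452290 to 114458951, minus strand) had the ratio farthest from 1 of the 9 in fibroblasts. It rested on 107 wild-type and 1714 labelled knockout UMIs, or 19.3 CPM (15.8 to 23.3) and 105 CPM (100.01 to 110.01), 5.43-fold (4.47 to 6.67) higher. The share of fibroblasts with a UMI was 3.73% and 23.0%, and 1.03% and 7.12% after thinning, while B cells gave 0.0400% and 0.303%. Fstl1 (ENSMUSG00000022816, chromosome 16, 37776873 to 37836514, plus strand), a follistatin-like glycoprotein of mesenchymal cells that can bind BMP4, was broadly present, in 88.6% and 90.3% of fibroblasts. Its level was 1361 CPM (1330 to 1392) and 1735 CPM (1714 to 1755) there, a ratio of 1.27 (1.24 to 1.31). In smooth muscle cells and pericytes it was lower in the labelled knockout library, at 1247 and 928 CPM, a ratio of 0.744 (0.698 to 0.793). Chrdl1 (ENSMUSG00000031283, chromosome X, 143285674 to 143394262, minus strand), a chordin-like BMP antagonist, was rare. Fibroblasts had 58 and 53 UMIs, or 10.5 CPM (7.95 to 13.5) and 3.24 CPM (2.43 to 4.24), 3.23-fold (2.18 to 4.77) lower. Smooth muscle cells and pericytes had 35.9 and 18.6 CPM, and 39.9 and 130 CPM, from 39 and 54 UMIs, in the unlike cells left without cluster 13. Within sub-cluster 5, which held most of those labelled knockout cells, Chrdl1 was at 334 and 175 CPM, the same direction as in the whole class.

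**Figure D2:**
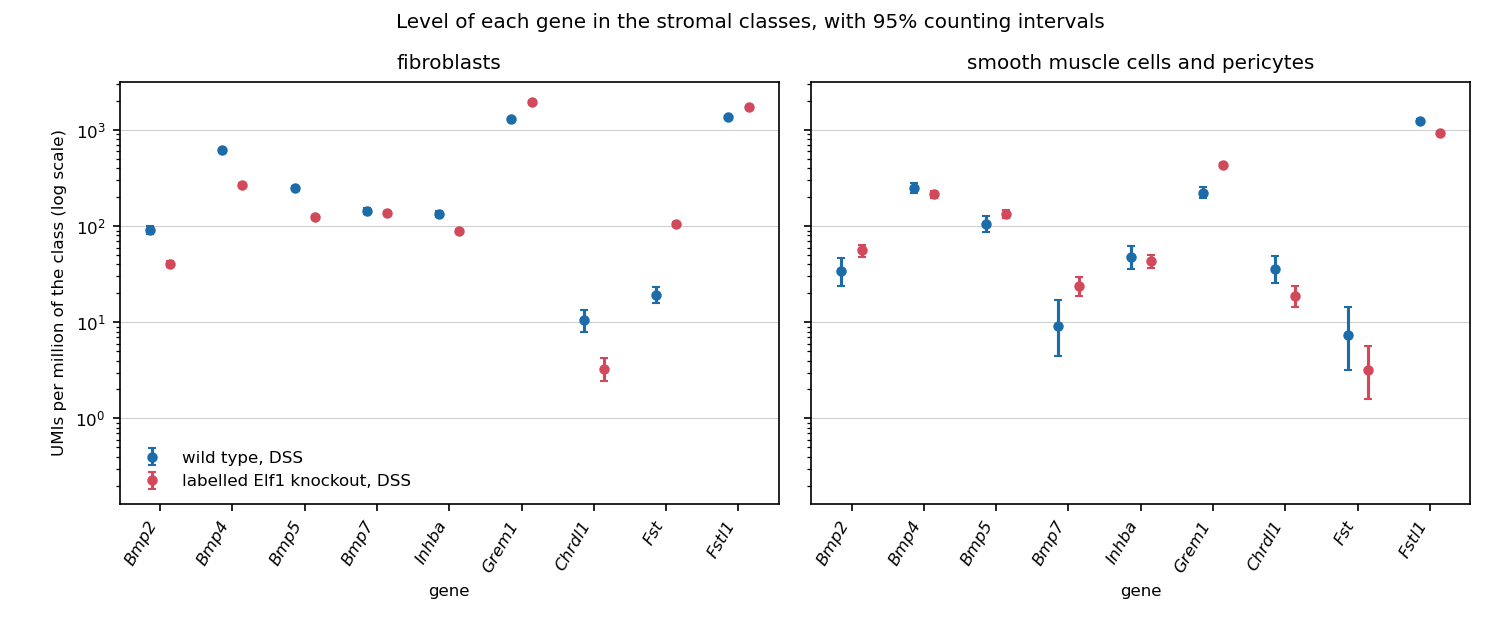
CPM of each gene (log axis) in fibroblasts (left) and in smooth muscle cells with pericytes (right), with 1 point per library (blue, wild type; red, labelled knockout) and bars for 95% counting intervals. In fibroblasts the points of Bmp2, Bmp4, Bmp5, Inhba and Chrdl1 are lower and those of Grem1, Fst and Fstl1 higher in the labelled knockout library, while those of Bmp7 nearly coincide at 144 and 137 CPM.

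Counted by a set size of at least 2-fold, among genes with at least 50 UMIs in the class, 4 of the 9 genes passed in fibroblasts: Fst was higher and Bmp2, Bmp4 and Chrdl1 were lower in the labelled knockout library. Of all 11419 genes tested, 16.7% passed in either direction, 3.42% higher and 13.3% lower. The median log2 ratio of the 9 genes was -0.60 and that of all genes -0.34. TMM scaling moved the median of all genes by 0.37, after which 2 of the 9 passed, Fst higher (2.81) and Chrdl1 lower (-1.32), while Bmp2 and Bmp4 were at -0.82 and -0.83 on the log2 scale. In smooth muscle cells and pericytes, 8 of the 9 had enough UMIs and 1 passed, Bmp7, which was higher, against 17.4% of all genes (6.27% higher and 11.2% lower). Without cluster 13, which leaves mostly contractile cells of sub-cluster 2 in the wild-type and Cajal-like cells in the labelled knockout library, 4 passed there: Bmp4 (ratio 0.424), Grem1 (12.2), Fstl1 (0.311) and Chrdl1 (3.27). In macrophages and monocytes, 4 of the 9 had enough UMIs and all 4 passed, Inhba and Bmp2 lower and Grem1 and Fstl1 higher, against 11.0% of all genes (4.49% higher and 6.50% lower). The Grem1 and Fstl1 values are among the low counts not read as expression, which leaves Inhba and Bmp2. Both were compared over a class of unlike make-up, since cluster 28 held 3 and 565 of its cells. In endothelial cells 1 of 3 passed, Grem1, which was higher, against 10.6% (3.67% higher and 6.92% lower), and this too is one of the low counts not read as expression.

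Markers of other cell types in the fibroblast class also differed between the libraries. Of 18 epithelial markers, 18 and 14 were detected, at a summed 395 and 74.1 CPM, beside 43035 and 92984 CPM in the epithelial cells themselves. Of 11 neutrophil markers, 10 and 11 were detected, at 124 and 851 CPM, and of 7 erythroid markers 5 and 7, at 255 and 4674 CPM. Their part in the ratios above was not tested.

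The stroma (1621 and 3990 cells) was clustered again without the 9 genes, into 14 sub-clusters, of which 9 could be named by marker lists. Few were shared. Sub-cluster 0, homeostatic-like and led by Sfrp2, Cldn1 and Wnt4, held 751 wild-type and 2 labelled knockout cells. Of those 751 cells, 312 were named homeostatic-like when wild-type stroma was clustered alone. Sub-cluster 3, subepithelial-like, with Ednrb and Wif1 among its leading genes, held 162 and 0 cells, and sub-cluster 2, led by the contractile genes Cnn1, Lmod1 and Actg2, held 286 and 2. The marker lists named sub-cluster 2 myofibroblast-like by a narrow margin, with scores of 0.719 on that list and 0.672 on the smooth muscle list, and 285 of its 286 wild-type cells were named smooth-muscle-like when wild-type stroma was clustered alone. Sub-cluster 4, smooth-muscle-like here, was left unnamed for 718 of its 725 labelled knockout and 27 of its 30 wild-type cells when each library was clustered alone. The inflamed-like sub-clusters 1 (Ccl2, Il6, Lif) and 8 (Mmp3, Mmp10, Il11) held 67 and 533 and 30 and 792 cells. Sub-clusters 12 (Cxcl13, Ccl11), 7 (Ptx3, Il33) and 9 (Mmp13, Nppc, Smoc1) stayed unnamed and held 3 and 556, 16 and 339 and 27 and 354 cells. The adventitial-like sub-cluster 11 (Pi16) held 111 and 113 cells and the sub-cluster 5, like interstitial cells of Cajal (Kit, Ano1), 34 and 120.

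Among sub-clusters with at least 30 cells, Bmp5 and Bmp7 were highest in sub-cluster 3, the subepithelial-like cells, a type that lies under the epithelium in the gut. In these wild-type cells Bmp5 reached 674 CPM (612 to 740), and was seen in 88.3% of cells, and Bmp7 reached 560 CPM (504 to 620). Bmp2, at 339 CPM (296 to 387), was level within counting error with the 355 CPM (272 to 455) of wild-type sub-cluster 8. Bmp4, at 632 CPM (573 to 697), was no higher there than in the homeostatic-like sub-cluster 0, at 669 CPM (641 to 698). Grem1 was low in the same cells, at 63.2 CPM (45.4 to 85.8) against 1389 CPM (1349 to 1430) in sub-cluster 0. No Chrdl1 UMI was found among 648421 UMIs, which allows up to 4.63 CPM.

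In the labelled knockout library the unnamed sub-cluster 9 had the nearest pattern. It held 177 CPM (157 to 199) of Bmp2, 366 CPM (337 to 396) of Bmp4, 277 CPM (252 to 304) of Bmp5 and 430 CPM (398 to 463) of Bmp7, with 150 CPM (132 to 170) of Grem1. Inhba was at 349 CPM (320 to 379), its highest level in that library. Sub-cluster 9 scored highest on the subepithelial list but had none of its markers among its 10 leading genes, so it was given no name. In its labelled knockout cells 9 of the 11 markers of that list were higher than in the rest of that library's stroma and 2, Cxcl14 and Frzb, were lower. These cells had 192 CPM of Wnt5a, 511 CPM of Ednrb and 21.2 CPM of Sox6, beside 51.5, 89.3 and 0.550 CPM in that rest, and 3861 CPM of the collagenase gene Mmp13. The 27 wild-type cells of sub-cluster 9 had 419, 668, 419 and 708 CPM of Bmp2, Bmp4, Bmp5 and Bmp7 and 757 CPM of Inhba, and 24 of them were named subepithelial-like when wild-type stroma was clustered alone. Sub-clusters 3 and 9 together held 55.8% and 29.6% of stromal Bmp7 UMIs and 49.9% and 33.3% of stromal Bmp2 UMIs, but 1.25% and 0.709% of stromal Grem1 UMIs. They held 189 of 1621 wild-type and 354 of 3990 labelled knockout stromal cells.

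Grem1 was highest in other cells. Its levels were 3824 CPM (3635 to 4020) and 3573 CPM (3512 to 3636) in the inflamed-like sub-cluster 1, 2548 CPM (2317 to 2797) and 2936 CPM (2887 to 2986) in sub-cluster 8, and 2218 CPM (1938 to 2527) and 3966 CPM (3749 to 4193) in the Cajal-like sub-cluster 5. Sub-cluster 12, present in the labelled knockout library, had 1723 CPM (1673 to 1775). The 2 inflamed-like sub-clusters, with 97 of 1621 wild-type and 1325 of 3990 labelled knockout stromal cells, held 26.7% and 77.7% of stromal Grem1 UMIs. Sub-cluster 0, with 751 of the wild-type stromal cells, held 60.7% of the wild-type stromal Grem1 UMIs. That sub-cluster was mixed for Grem1. With wild-type stroma clustered alone, 319 cells named homeostatic-like had 327 CPM (296 to 359) of Grem1. The 202 cells then named reticular-like had 1965 CPM (1869 to 2065). At the other end, Grem1 was at 9.79 CPM (1 UMI) in wild-type pericyte-like cells and at 41.3 CPM in the contractile sub-cluster 2.

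Follistatin genes and Chrdl1 had their own places. Fst was highest in the unnamed sub-cluster 7 of the labelled knockout library, at 201 CPM (185 to 218) and in 43.7% of its cells, and stood at 118 CPM from 15 UMIs in the 16 wild-type cells there. When labelled knockout stroma was clustered alone, 336 of its 339 labelled knockout cells were named trophocyte-like, a state with 202 CPM of Fst. In homeostatic-like cells Fst was at 4.92 CPM (2.81 to 8.00). Fstl1 was highest in adventitial-like sub-cluster 11, at 2102 CPM (1988 to 2221) and 3132 CPM (3013 to 3255). Chrdl1 was largely limited to the Cajal-like sub-cluster 5, at 334 CPM (231 to 466) and 175 CPM (132 to 228), and to sub-cluster 11, at 71.5 CPM (51.7 to 96.2) and 31.2 CPM (20.4 to 45.8). Where its UMIs were found in other sub-clusters with at least 30 cells, it was at 9.03 CPM or less, and those with 0 UMIs allow up to 32.3 CPM (wild-type sub-cluster 4). Among sub-clusters with at least 30 cells, Inhba was highest in the wild-type inflamed-like cells of sub-clusters 8 and 1, at 1266 CPM (1104 to 1444) and 750 CPM (668 to 839), above the 193 CPM of wild-type macrophages themselves.

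**Figure D3:**
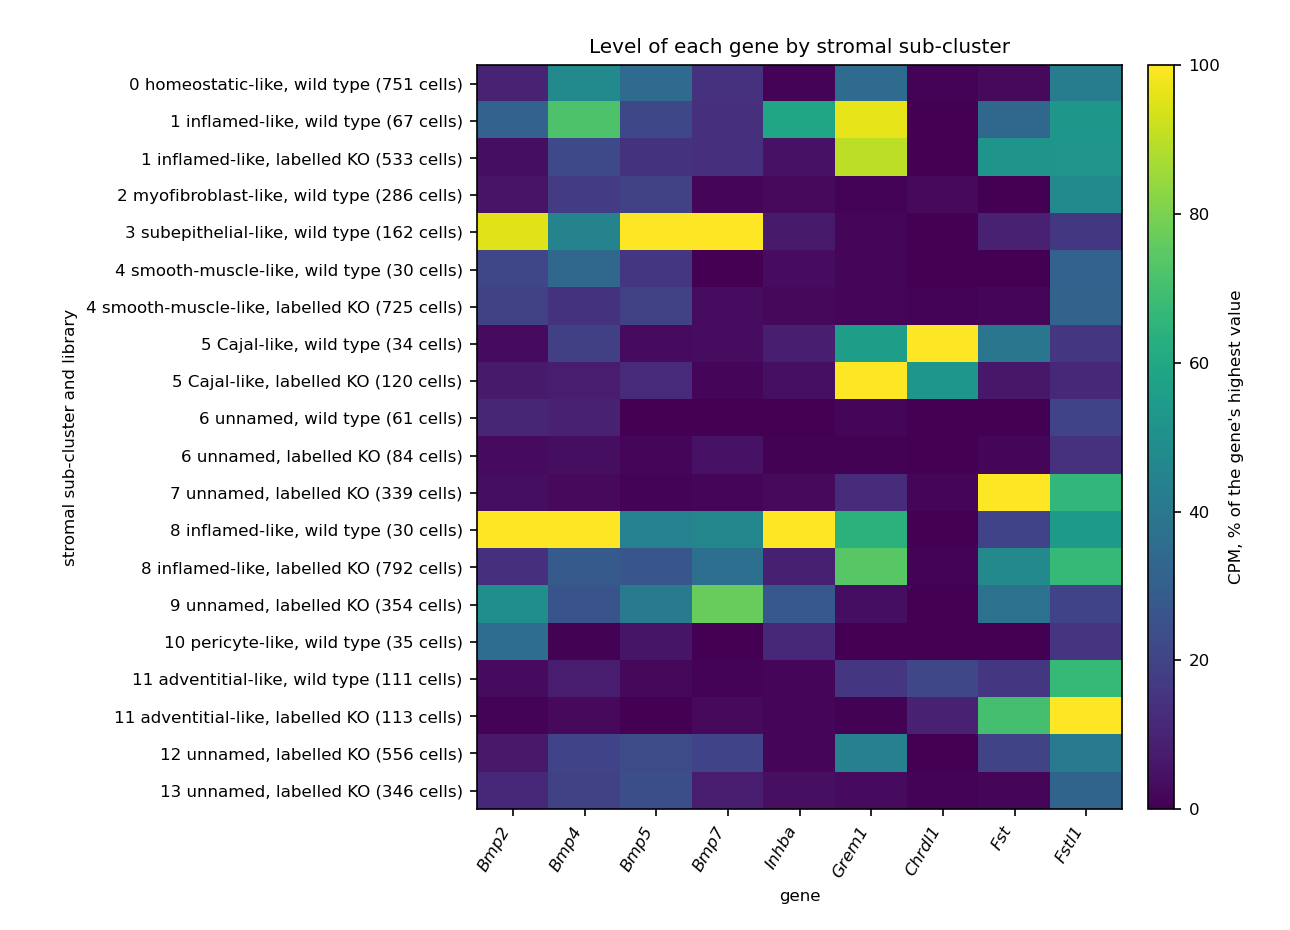
Level of each gene (columns) in each stromal sub-cluster of at least 30 cells, by library (rows, with cell numbers), as CPM in percent of that gene's highest row. Bmp5 and Bmp7 are brightest in subepithelial-like cells, where Grem1 is dark (63.2 CPM), and Grem1 is bright in inflamed-like and Cajal-like cells of both libraries.

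In all, 6 sub-clusters held at least 30 cells of each library and allowed a comparison of cells that clustered together. Cells placed together were not always named alike. With each library clustered alone, 31 of 34 wild-type cells of sub-cluster 5 were named Cajal-like, while all 120 labelled knockout cells were left unnamed. In sub-cluster 8, 30 of 30 wild-type and 438 of 792 labelled knockout cells were named inflamed-like. Sub-cluster 6 (61 and 84 cells), led by Ptn and Thbs2, had no name. Bmp4 was lower in the labelled knockout library in 6 of 6, with every interval below 1 and ratios from 0.284 to 0.438. In sub-cluster 1 it stood at 1018 CPM (922 to 1122) and 314 CPM (296 to 333), and in sub-cluster 8 at 1409 CPM (1238 to 1596) and 400 CPM (382 to 418). It was seen in 100% of the 30 wild-type and 69.2% of the 792 labelled knockout cells of sub-cluster 8. Bmp2 was lower in the inflamed-like cells, at 112 and 13.4 CPM in sub-cluster 1, 8.32-fold (5.42 to 12.8), and at 355 and 48.2 CPM in sub-cluster 8, 7.36-fold (5.46 to 9.80). In the smooth-muscle-like sub-cluster 4 the Bmp2 values of 75.4 and 68.7 CPM, from 7 and 133 UMIs, did not differ beyond counting error.

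Inhba showed the widest gap between inflamed-like cells of the 2 libraries. It stood at 750 and 59.6 CPM in sub-cluster 1, from 302 and 213 UMIs, 12.6-fold (10.5 to 15.1) lower, and at 1266 and 113 CPM in sub-cluster 8, from 221 and 522 UMIs, 11.2-fold (9.49 to 13.1) lower. With the stroma of each library clustered alone, inflamed-like cells, 105 and 892 in number, had 824 and 107 CPM, 7.71-fold (6.86 to 8.66) lower. The 97 wild-type cells of sub-clusters 1 and 8 held 65.5% of all stromal Inhba UMIs of their library, whereas the 1325 labelled knockout cells there held 45.8% of theirs. At least 1 Inhba UMI was seen in 58.2% of wild-type and 16.1% of labelled knockout cells of sub-cluster 1. In sub-clusters 5 and 11 the Inhba values rested on 11 to 16 UMIs and did not differ beyond counting error.

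Bmp5 was lower in both inflamed-like sub-clusters, with ratios of 0.680 (0.515 to 0.911) and 0.605 (0.457 to 0.817). In sub-cluster 11 it was 12.5-fold (1.73 to 546) lower from 9 and 1 UMIs, and in sub-cluster 5 it was higher, with a ratio of 4.06 (1.01 to 35.4) from 2 and 25 UMIs. The Bmp7 ratios in the inflamed-like sub-clusters 1 and 8, 1.003 (0.691 to 1.51) and 0.791 (0.586 to 1.09), had intervals that included 1.

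Grem1 lay closer to level between the libraries in the inflamed-like sub-clusters. Its ratio was 0.934 (0.886 to 0.986) in sub-cluster 1 and 1.15 (1.05 to 1.27) in sub-cluster 8, but 1.79 (1.55 to 2.07) in sub-cluster 5. The Grem1 UMIs of sub-cluster 5 lay in 38.2% of 34 wild-type and 80.8% of 120 labelled knockout cells. In sub-cluster 4 the ratio was 0.815 (0.384 to 2.07) from 7 and 119 UMIs, and in sub-cluster 6 0.313 (0.103 to 0.885) from 11 and 7. The 7 wild-type UMIs of sub-cluster 4 lay in 3.33% of its 30 cells. The 1.53-fold higher Grem1 level of the whole fibroblast class was not reached in the inflamed-like sub-clusters. With both libraries given the same mix of sub-clusters 1, 6, 8 and 11, the log2 ratio of Grem1 was 0.01 against 0.61 for the class. That mix left out sub-clusters 0 and 3, which held most wild-type fibroblasts. Sub-clusters 1 and 8 carried 33.5% and 45.8% of its weight, on 67 and 30 wild-type cells. Under that mix the log2 ratios of Bmp4, Bmp2 and Inhba were -1.77, -2.87 and -3.49. Adventitial-like sub-cluster 11 stood apart, with 628 CPM (566 to 695) of Grem1 in wild-type and 21.6 CPM (12.8 to 34.2) in labelled knockout cells. That gap depended on the sub-clustering, since at a resolution of 0.5 the adventitial-like values were 772 and 387 CPM. With the stroma of each library clustered alone, they were 767 and 23.1 CPM, in 127 and 109 cells. Fst was higher in sub-clusters 1, 8 and 11, with ratios of 1.56 (1.05 to 2.39), 2.37 (1.14 to 5.93) and 4.49 (2.75 to 7.72). It was lower in sub-cluster 5, with a ratio of 0.163 (0.0358 to 0.607) from 8 and 4 UMIs. Those UMIs lay in 8.82% of 34 wild-type and 0.833% of 120 labelled knockout cells. In sub-cluster 8, Fst was seen in 6.67% of 30 wild-type and 21.8% of 792 labelled knockout cells. Fstl1 ratios lay between 0.707 and 1.49.

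**Figure D4:**
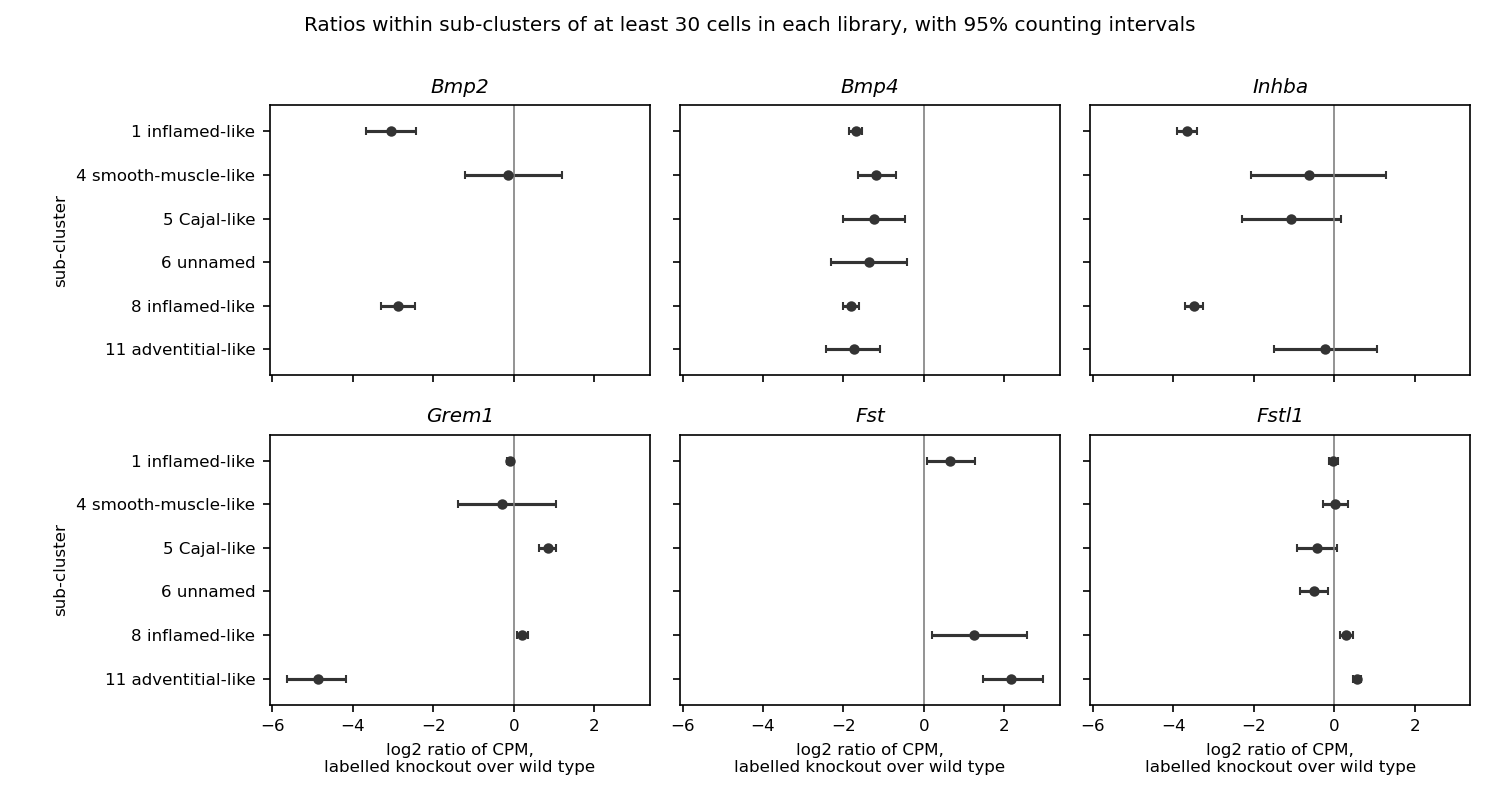
Log2 ratio of CPM, labelled knockout over wild type, within each of the 6 sub-clusters with at least 30 cells in each library (rows), for Bmp2, Bmp4, Inhba, Grem1, Fst and Fstl1, with 95% counting intervals. Points with under 20 UMIs in all, or with 0 in a library, are left out. Bmp4 lies left of 0 in all 6 rows, Inhba and Bmp2 lie farthest left in inflamed-like cells, and Grem1 lies near 0 there.

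By the same 2-fold size, the genes that passed were Bmp2, Bmp4 and Inhba in sub-cluster 1 (3 of 8 with enough UMIs, all lower, against 15.4% of all genes, 9.90% higher and 5.51% lower). In sub-cluster 8 they were the same 3, lower, with Fst, higher (4 of 8, against 21.3%, 13.4% higher and 7.98% lower). In sub-cluster 11 Bmp4, Grem1 and Chrdl1 were lower and Fst higher (4 of 5, against 14.0%, 5.18% higher and 8.77% lower). In sub-cluster 4 Bmp4 alone was lower (1 of 6, against 22.4%, 13.6% higher and 8.83% lower), as in sub-cluster 5 (1 of 4, against 15.0%, 7.65% higher and 7.36% lower). In sub-cluster 6 the 1 gene with enough UMIs, Fstl1, did not pass, against 10.6% (5.50% higher and 5.15% lower). Over all stromal cells summed, Fst was higher and Bmp4 and Chrdl1 lower, 3 of 9, against 17.2% (3.51% higher and 13.7% lower).

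The rest of the pathway was read in fibroblasts from 5 lists that share some genes, with 77 genes in all, of which 71 were listed and 50 had at least 50 UMIs. Of these 50, 1 was at least 2-fold higher, 11 at least 2-fold lower and 38 within 2-fold in the labelled knockout library, with a median log2 ratio of -0.46. Over all genes tested in fibroblasts 3.42% were higher and 13.3% lower by that size, with a median of -0.34. Among other ligands, 3 of 6 were lower. Bmp3, a BMP family member that antagonises others, stood at 9.39 and 2.45 CPM, and Gdf15, a stress-responsive cytokine, at 96.9 and 29.1 CPM. Among other antagonists and modulators, 1 of 15 was higher and 3 lower. The higher one was Smoc2, a matricellular protein, at 23.3 and 47.4 CPM, and the lowest ratio belonged to Htra1, a secreted protease, at 484 and 81.9 CPM, 5.91-fold lower. Nbl1, a DAN-family BMP antagonist, was at 327 and 535 CPM, a ratio of 1.64 (1.55 to 1.72).

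Receptors and Smads are the parts of the pathway inside or on the receiving cell. Of 11 receptors and co-receptors with enough UMIs, 2 were lower, the decoy receptor Bambi at 53.4 and 23.9 CPM and the co-receptor Rgma at 15.7 and 7.47 CPM. None of 11 Smads and Smad regulators passed, with Smad6 the lowest ratio, 0.580 (0.459 to 0.735). Endothelial cells had the highest level of the receptor genes Acvrl1, Bmpr2 and Eng in the wild-type library, at 279, 300 and 1101 CPM. Bmpr1a, a type I BMP receptor, was at 119 and 83.8 CPM in fibroblasts, 109 and 105 CPM in smooth muscle cells and pericytes and 33.1 and 36.8 CPM in epithelial cells.

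Of 12 targets with enough UMIs, 4 were lower and none higher by 2-fold, beside 13.3% lower and 3.42% higher over all genes. Id1 stood at 111 and 35.2 CPM, 3.16-fold lower, and Id3 at 1236 and 524 CPM, 2.36-fold lower, in fibroblasts. Id1 was also lower in epithelial cells, at 887 and 81.8 CPM, from 6110 and 40 UMIs. The labelled knockout ones also held 74 Grem1 UMIs, RNA of a stromal gene, so their Id1 is not read as an epithelial level. The epithelial cells of the 2 libraries were also unlike, with 932 and 7 in cluster 5 and 20 and 55 in the enteroendocrine cluster 9. Id1 was lower as well in smooth muscle cells and pericytes, at 245 and 23.3 CPM. Of the 266 wild-type Id1 UMIs of that last class, 125 came from 35 pericyte-like cells. Within sub-cluster 1, Id3 was nearly level, at 718 and 708 CPM (ratio 0.986, 0.873 to 1.12), while Id1 was at 67.0 and 33.6 CPM. In sub-cluster 8, Id3 was at 664 and 391 CPM, and Id1 at 40.1 and 26.1 CPM with an interval that included 1. The highest Id1 level of any stromal sub-cluster, 1224 CPM, was in wild-type pericyte-like cells, where Bmp2 was at 127 CPM (67.8 to 218) from 13 UMIs.

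**Figure D5:**
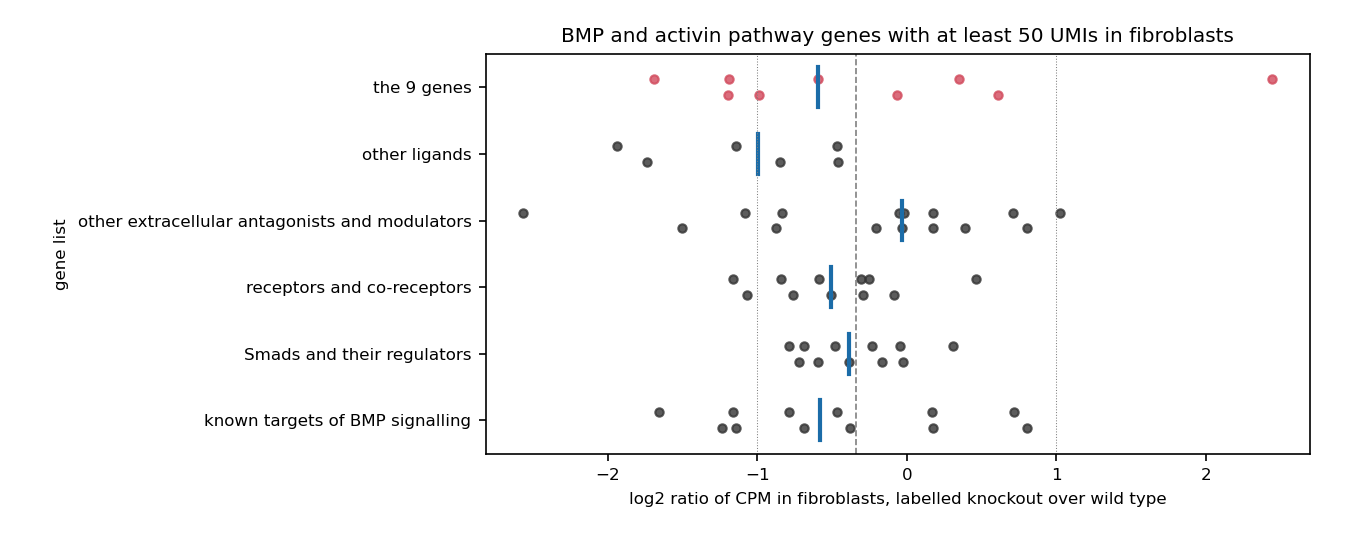
Log2 ratio of CPM in fibroblasts, labelled knockout over wild type, with 1 point per gene with at least 50 UMIs, for the 9 genes (red) and the 5 pathway lists. Blue bars are medians, the dashed line is the median of all genes (-0.34) and dotted lines mark 2-fold. Most points lie within 2-fold, with Fst at the far right of the 9 genes (2.44) and Htra1 at the far left of the antagonists.

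Across 20 points, each a stromal sub-cluster in 1 library, the levels of several ligands were correlated. Pearson's r of log2(CPM + 1) was 0.67 between Bmp4 and Bmp5, 0.64 between Bmp5 and Bmp7 and 0.64 between Bmp2 and Bmp5. It was -0.01 between Bmp2 and Grem1 and -0.58 between Bmp2 and Chrdl1. Among 8686 genes, the most alike to Bmp5 was Ets2 (r = 0.89), to Bmp7 Gja1 (0.88), to Bmp4 Pla2g4a (0.87), to Grem1 Fgf2 (0.83), to Chrdl1 Paics (0.83), to Fstl1 Fyn (0.82), to Bmp2 Ghitm (0.81), to Inhba Gapdh (0.81) and to Fst E2f3 (0.80). The points share 2 libraries and differ in depth and cell number, so these values only describe likeness.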

How the data were processed

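Each library was deposited as a matrix of whole-number UMI counts, genes by barcodes, and the values show no scaling. Tools listed in the submitters' processing notes are STAR 2.6.1a, featureCounts 2.0.1 and cutadapt 1.17, and the build is GRCm38. The DSS dose, its duration and the strand setting are not stated in those sources.

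Cells needed at least 500 UMIs, 200 genes and at most 25% mitochondrial UMIs. Doublets were called with scrublet in scanpy 1.11.5. It marked 260 of 9734 labelled knockout barcodes, which were removed, and 2 of 8124 wild-type barcodes, a share that shows the caller did not work there, so the 5% with the highest scores (406) were removed. This left 29823446 and 37261926 UMIs. Both libraries were clustered together on 2000 variable genes (30 components, 15 neighbours, Leiden resolution 1.0, igraph 0.11.9), without the 9 genes and without mitochondrial, ribosomal, haemoglobin, immunoglobulin and sex-linked genes. A cluster took the list with the highest mean relative marker level, if at least 3 markers stood at 2 times the mean of all cells and no comparable list led among its 10 leading genes. A stromal sub-cluster also needed 1 own marker among those 10. These naming rules were set and changed after the clusters had been seen, the last changes after levels of the 9 genes by cluster had been seen. The 9 genes, the marker and pathway lists and the rules for naming genes were chosen with earlier results of these data known. Besides the 9 genes, the text names up to 3 of the highest and 3 of the lowest ratios of each pathway list with an interval that excluded 1, and the genes with the highest likeness. 1 gene that this rule names is not reported here. Unnamed clusters held 4 and 169 cells.

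CPM is a gene's summed UMIs per 1000000 UMIs of the class. Levels carry exact Poisson, shares exact Clopper-Pearson and ratios exact conditional binomial 95% intervals (scipy 1.17.1), and intervals and limits cover counting error only. A count of 0 allows 3 counts. A gene passed when its ratio was at least 2-fold either way, among genes listed in both files (23197) with at least 50 UMIs in the class. TMM factors came from edgeR 4.0.16, with no test. Coverage of the ratio intervals was tested on simulated Poisson counts. These hold no spread between cells or mice beyond counting error, so the test says nothing about that spread. Coordinates are from GENCODE on GRCm38, and promoter sequences from RefSeq on GRCm38.p6.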

Additional observations from a re-analysis of the deposited data

Results flagged for a closer look

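Bmp2, Bmp5 and Fstl1 had ratios of opposite sign, with intervals that excluded 1, in the 2 stromal classes. The log2 ratio (labelled knockout over wild type) of Bmp2 was -1.19 in fibroblasts and 0.71 in smooth muscle cells and pericytes, that of Bmp5 -0.99 and 0.34, and that of Fstl1 0.35 and -0.43. These differences between classes were not tested, since each group is 1 library. Without cluster 13, which held 87.4% of the labelled knockout smooth muscle class, Bmp2 was at -0.03 and Bmp5 at -0.98 there, and Fstl1 at -1.69. The cells left there are unlike, since 291 of 355 wild-type cells lay in cluster 8 and 143 of 152 labelled knockout cells in cluster 16.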

How the results depend on the processing

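Of the 9 genes, those past 2-fold in fibroblasts numbered 4, and 2 with TMM scaling, 2 with cells thinned to 1000 UMIs, 7 at a fold of 1.5 and 2 at a fold of 3. Those in smooth muscle cells and pericytes numbered 1, and 3 with TMM scaling, 2 at a limit of 10% mitochondrial UMIs, 2 with doublets kept, 2 as a mean over cells and 4 without cluster 13, an alternative chosen after seeing the data. The pathway genes past 2-fold in fibroblasts numbered 12, and 25 at a fold of 1.5, 4 at a fold of 3 and 21 with no floor on UMIs. Log2 ratios that turned were those of Bmp4 in smooth muscle cells and pericytes (0.084 with TMM scaling), Inhba in fibroblasts (0.062 as a mean over cells and 0.20 with thinned cells), Grem1 in B cells (-0.62 after subtracting the background bound), and Bmp5 (-0.98) and Chrdl1 (1.71) in smooth muscle cells and pericytes without cluster 13. The cause was not tested. Of the other ratios, 273 stayed within their counting interval and 53 moved past it. Among these, ratios near 1 also changed sign, Bmp7 in fibroblasts under 4 alternatives (up to 0.30) and Inhba in smooth muscle cells and pericytes under 4 (up to 0.75). Of 270 levels in stromal states under other sub-clustering, 35 moved past their interval. In fibroblasts, over all alternatives, the log2 ratio of Bmp4 ran from -1.77 to -0.83, that of Bmp2 from -2.87 to -0.77, that of Fst from 1.11 to 3.13 and that of Grem1 from 0.01 to 0.98. No paired analysis was possible because the groups share only 1 replicate number, with 1 library each. Depth limits Chrdl1 everywhere and Fst in the wild-type library, which had 133 UMIs in all.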
